A study of Mus musculus with 20 samples.

Results

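The 8 genes described here mark inhibitory interneurons of the mouse hippocampus: the neuropeptide genes Sst, Cort, Npy, Vip and Cck, the calcium-binding protein genes Pvalb and Calb2, and Reln, which encodes the secreted glycoprotein reelin. They were taken by gene symbol. All 8 were listed in every one of the 20 deposited tables of 13256 genes, and all 8 were among the 13174 genes that passed a filter of at least 0.5 FPKM in at least 5 libraries. FPKM counts the fragments of a gene relative to the length of its transcript and to all mapped fragments of the library.

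The libraries came from the hippocampus of C57 mice with an intact Fmr1 gene, called WT here, and of Fmr1 KO mice. Fmr1 encodes FMRP, an RNA-binding protein whose loss causes fragile X syndrome in people. There were 4 groups of 5 libraries: WT females, KO females, WT males and KO males. Every title, WT and KO alike, carries the word Con, which the labels do not explain, and no treatment field is given. The age of the mice, the KO allele, the background strain of the KO mice and whether the females carried 1 or 2 mutant copies are not stated in the labels. The titles say KO while the genotype field calls these mice a knockdown, and no label says that the 5 libraries of a group came from separate animals, so a p-value here reflects no more than the spread among these libraries, which may be technical.

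Interneurons release GABA and restrain the pyramidal and granule cells of the hippocampus. Classes of interneuron are told apart by what they make: Sst cells target dendrites, Pvalb basket cells target cell bodies, Vip and Calb2 cells often target other interneurons, Cck basket cells form a separate group at cell bodies, and Npy and Reln mark neurogliaform cells among others. Several of these genes are also used outside interneurons: Cck in pyramidal cells, Calb2 in mossy cells of the mouse dentate hilus, and Reln in Cajal-Retzius cells. Cort, the gene of cortistatin, encodes a peptide closely related to somatostatin that binds the same receptors.

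The genotype labels were checked on Fmr1 itself and the tissue on markers of neighbouring tissues. No check of the sex labels is reported here. Fmr1 was listed at 9.85 to 11.3 FPKM in female WT and 10.5 to 11.8 FPKM in male WT libraries, against 2.90 to 3.66 FPKM in female KO and 3.31 to 3.72 FPKM in male KO libraries. Total FPKM per library ran from 230631 to 244976, and 12766 to 12899 genes reached 0.5 FPKM. The tables hold no counts, so the depth is unknown. Markers of neighbouring tissues stood high in some libraries. Ttr, made by choroid plexus, exceeded 500 FPKM in 4 libraries: replicates 4 and 5 of the female KO group, male KO replicate 2 and female WT replicate 4. Prl, made by the pituitary, exceeded 4 FPKM in female KO replicates 2, 3 and 4. The rise of expression with GC content of a gene was steepest in the 5 female KO libraries. Results that rest on these libraries are given with and without them.

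The start-site windows of Sst, Cort and Cck, the members that passed a test below, are shown because this is where members of this group can be compared as sequence. They are RefSeq windows on GRCm38.p6, from 250 bases before to 50 bases after the annotated start, and 7 of the 8 members had one. Capitals mark the cAMP response element TGACGTCA or its first letters TGACG, searched on both strands, so that CGTCA is TGACG read on the other strand. Every TGACGTCA also holds TGACG on each strand.
Sst, chr16:23890795-23891094, minus strand: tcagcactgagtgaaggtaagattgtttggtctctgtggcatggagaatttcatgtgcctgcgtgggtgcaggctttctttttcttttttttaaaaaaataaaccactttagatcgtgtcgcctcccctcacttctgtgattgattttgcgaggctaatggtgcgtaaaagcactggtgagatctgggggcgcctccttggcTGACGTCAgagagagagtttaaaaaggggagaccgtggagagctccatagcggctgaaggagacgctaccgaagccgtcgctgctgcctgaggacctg
Cort, chr4:149126714-149127013, minus strand: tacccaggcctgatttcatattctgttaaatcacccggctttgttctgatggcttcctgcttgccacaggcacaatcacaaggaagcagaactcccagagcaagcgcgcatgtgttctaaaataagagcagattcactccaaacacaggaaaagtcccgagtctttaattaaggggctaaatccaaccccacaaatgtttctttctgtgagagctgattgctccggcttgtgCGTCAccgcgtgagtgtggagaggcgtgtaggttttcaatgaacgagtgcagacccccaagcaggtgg
Cck, chr9:121495645-121495944, minus strand: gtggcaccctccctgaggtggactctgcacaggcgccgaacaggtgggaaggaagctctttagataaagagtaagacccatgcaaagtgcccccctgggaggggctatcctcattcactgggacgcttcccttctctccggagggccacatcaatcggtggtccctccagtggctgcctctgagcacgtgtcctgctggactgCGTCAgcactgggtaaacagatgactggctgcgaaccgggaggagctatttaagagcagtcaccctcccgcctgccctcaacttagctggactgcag

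The window of Sst held TGACGTCA, beginning 48 bases before the start. Of 32851 windows of this length, 1.79% held it on either strand. The shorter TGACG was found in the windows of Sst, Cort, Vip and Cck, beginning 18 bases before the start in Cort, 79 in Vip and 47 in Cck, and in 20.8% of all windows. The letters were not in the windows of Npy, Pvalb and Reln. A match describes the sequence only, and no binding was measured here.

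Sst was by far the most abundant of the 8 per length, with a mean over the 20 libraries of 282 FPKM, which put it between the 99.5th and 99.7th percentile of the genes of each library. Cck followed with 120.0 FPKM, Npy with 66.6, Pvalb with 32.7, Calb2 with 21.1, Cort with 9.27, Vip with 5.81 and Reln with 2.83 FPKM. This order held between every pair of neighbours in all 20 libraries, except that Cort lay below Vip in male WT replicate 5. Cort varied most, with 2.76 times as much in its highest library as in its lowest, and Reln varied least, at 1.39 times. The level of a gene in tissue RNA depends both on how many cells of a type there are and on how much RNA each makes, and these cannot be told apart here.

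**Figure D1:**
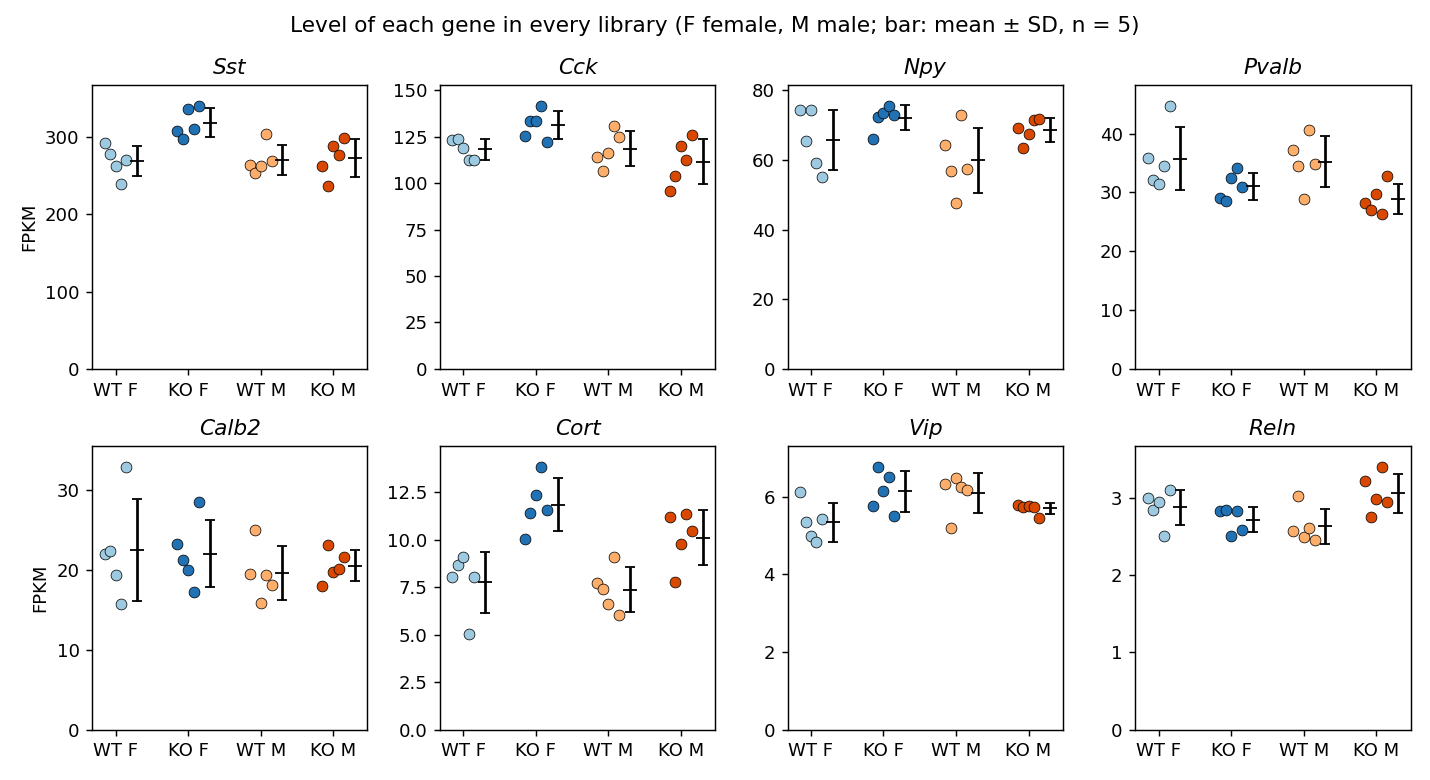
FPKM of each gene (vertical axes, from 0) in each of the 20 libraries, by genotype and sex; points are libraries and bars the mean ± SD of 5. Female KO libraries lie above all female WT libraries for Sst and Cort, and the groups overlap for the other 6 genes.

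The first comparison asks what the loss of Fmr1 changed in females. Sst and Cort rose, and the other 6 genes did not pass the test. Sst was 1.19 times and Cort 1.52 times as high in KO as in WT by mean FPKM. With 2 of 8 members past an adjusted p of 0.05 in limma, the background to read this against is 3.32% of all tested genes in either direction and 1.8% for genes that were higher in KO. The median difference over the 8 was 0.15 on the log2(FPKM + 1) scale, a scale that understates the change of low genes, against 0.01 over all tested genes.

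Sst encodes the precursor of somatostatin, a peptide that inhibits hormone and transmitter release. It lies at chr16:23889581-23890844 on the minus strand (mm10, ENSMUSG00000004366.3). In female WT libraries 1 to 5 it was listed at 293, 278, 262, 240 and 270.3 FPKM, and in female KO libraries at 308, 297, 336, 310.2 and 340.02 FPKM. The lowest KO library stood above the highest WT library, as was so for 3.17% of all tested genes, or 5.99% counting both directions. The difference was 0.25 in log2(FPKM + 1) (SE 0.06, 95% interval 0.11 to 0.38), with a Benjamini-Hochberg adjusted p of 0.0407 in limma.

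The call for Sst was close to the threshold. It was lost with upper-quartile scaling (adjusted p 0.0503), after removal of the GC trend (0.21, adjusted p 0.0658), with only the female groups in the fit (0.0568), without the Ttr-rich libraries (0.18, adjusted p 0.205) and without the Prl-rich libraries (0.27, adjusted p 0.244). It was also lost in 9 of 20 fits that left out 1 library, namely female WT replicates 3, 4 and 5, female KO replicates 2, 3, 4 and 5, and male WT replicates 1 and 5, in which the difference was 0.21 to 0.27 and the adjusted p 0.0502 to 0.114.

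Cort lies at chr4:149125034-149126763 on the minus strand (mm10, ENSMUSG00000028971.4). Its levels in female WT libraries 1 to 5 were 8.06, 8.66, 9.07, 5.01 and 8.02 FPKM, and in female KO libraries 10.01, 11.4, 12.3, 13.8 and 11.6 FPKM. All KO libraries were again above all WT libraries, and WT replicate 4 stood well below the other WT libraries. The difference was 0.57 (SE 0.13, 95% interval 0.29 to 0.84, limma adjusted p 0.0253). It kept its call after removal of the GC trend (0.51, adjusted p 0.0429). The call was lost with only the female groups in the fit (adjusted p 0.0614), without the Ttr-rich libraries (0.37, adjusted p 0.119) and without the Prl-rich libraries (0.45, adjusted p 0.343). It was lost too without female WT replicate 4 (0.44, adjusted p 0.0524), female KO replicate 3 (0.55, 0.0601) or female KO replicate 4 (0.51, 0.0566).

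Cenps, the nearest gene to Cort on its strand, lies 358 bases upstream of it. It was listed at a mean of 0.69 FPKM, and its difference in females was 0.05 (limma adjusted p 0.799). The nearest gene on the other side, Dffa, was at 9.50 FPKM and differed by 0.08 (adjusted p 0.407). Of the 8 members only Reln overlaps other gene models in GENCODE M21, among them the antisense genes Gm10475 and Gm16110. The strand setting of the counting is not given in the sources used here, so reads of Reln and of these 2 genes cannot be told apart.

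Among the other peptides in females, Npy, an inhibitory peptide made by several interneuron classes, had a mean of 65.7 ± 8.73 FPKM in WT and 72.2 ± 3.53 FPKM in KO (SD, n = 5; log2 difference 0.14, limma adjusted p 0.414). Vip, whose peptide raises cyclic AMP in its target cells, was at 5.34 ± 0.498 and 6.14 ± 0.518 FPKM (0.17, limma adjusted p 0.127). Cck, the cholecystokinin precursor, was at 118 ± 5.55 and 131 ± 7.55 FPKM (0.15, limma adjusted p 0.223). Means of all 3 were higher in KO by 9.74% to 14.9%, within ranges that overlapped.

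The calcium-binding protein genes and Reln did not pass in females. Pvalb, which encodes a calcium buffer of fast-spiking basket cells, was at 35.7 ± 5.33 FPKM in WT and 31.0 ± 2.32 FPKM in KO (log2 difference -0.19, 95% interval -0.38 to 0.00, limma adjusted p 0.263). Calb2, which encodes calretinin, had the widest spread, 22.5 ± 6.40 FPKM in WT and 22.03 ± 4.19 FPKM in KO, and the interval of its difference ran from -0.33 to 0.32. Reln was at 2.88 ± 0.228 and 2.72 ± 0.163 FPKM (-0.06, limma adjusted p 0.584).

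**Figure D2:**
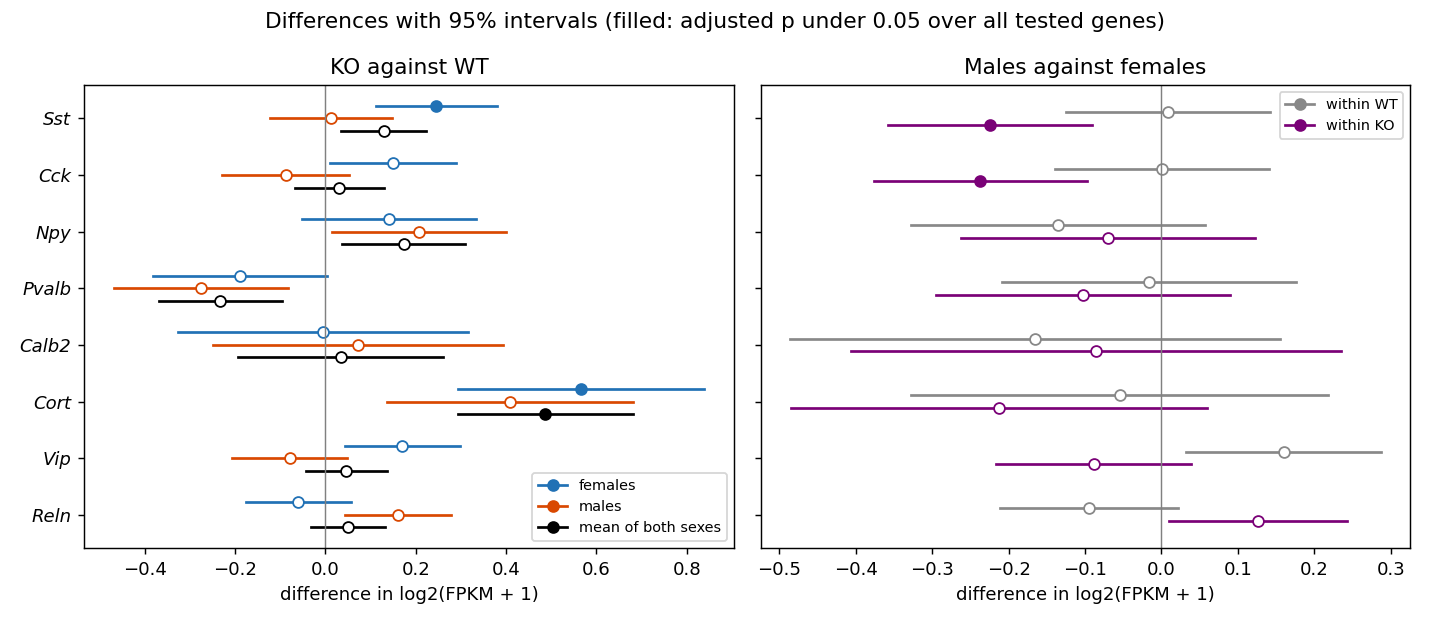
Differences in log2(FPKM + 1) with 95% intervals from limma for the 8 genes, KO against WT in each sex and averaged (left) and males against females within each genotype (right); filled points have an adjusted p under 0.05 over 13174 genes. The filled points are Sst and Cort in females, Cort in the mean of both sexes, and Sst and Cck between KO males and KO females.

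In males no member passed the test, against a background of 0.0455% of tested genes, 6 in all. At an unadjusted p under 0.05 in limma there were 4 members (Cort, Npy, Pvalb and Reln), where 8.69% of all tested genes reached it. No member's KO libraries were clear of its WT libraries in males, as was so for 2% of tested genes.

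Cort in male WT libraries 1 to 5 was at 7.72, 7.38, 6.59, 9.11 and 6.04 FPKM, and in male KO libraries at 11.2, 7.75, 9.79, 11.3 and 10.5 FPKM. KO replicate 2 lay inside the WT range and the other 4 lay above it. The difference was 0.41 (95% interval 0.14 to 0.68, limma adjusted p 0.327), or 1.37 times by mean FPKM. Without the Ttr-rich libraries, of which KO replicate 2 is 1, it was 0.49 (adjusted p 0.0613).

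Sst in male WT libraries was at 264, 253, 262, 303 and 268 FPKM, and in male KO libraries at 263, 237, 288, 277 and 299 FPKM. The ranges lay across each other. The difference was 0.01 (95% interval -0.12 to 0.15, limma adjusted p 0.982).

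Pvalb in male WT libraries was at 37.3, 34.5, 28.9, 40.7 and 34.8 FPKM, and in male KO libraries at 28.1, 27.1, 29.7, 26.4 and 32.8 FPKM. WT replicate 3 lay among the KO libraries, and the other 4 WT libraries were above every KO library. The difference was -0.28 (95% interval -0.47 to -0.08, limma adjusted p 0.372).

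Npy was at 59.9 ± 9.35 FPKM in male WT and 68.7 ± 3.46 FPKM in male KO (SD, n = 5; 0.21, limma adjusted p 0.538). Reln, which guides neuronal positioning and acts at adult synapses, was at 2.63 ± 0.231 and 3.06 ± 0.253 FPKM (0.16, limma adjusted p 0.385). Vip, at 6.08 ± 0.516 and 5.70 ± 0.134 FPKM, and Cck, at 119 ± 9.41 and 112 ± 12.3 FPKM, had differences of -0.08 and -0.09. For Calb2 the means were 19.6 ± 3.38 and 20.5 ± 1.95 FPKM.

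Averaged over both sexes, which uses the same libraries again, Cort was the 1 member of 8 that rose, against 3.22% of tested genes past the threshold and 1.38% past it and higher. Its difference was 0.49 (SE 0.09, 95% interval 0.29 to 0.68, limma adjusted p 0.00850), from a mean of 7.57 FPKM in WT to 10.97 FPKM in KO. It kept its call in all 20 fits without 1 library, at 0.42 to 0.53, and without the Ttr-rich libraries (0.43, adjusted p 0.00671). Without the 3 Prl-rich female KO libraries it was 0.43 with an adjusted p of 0.0945.

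Pvalb had a mean of 35.5 FPKM in WT and 29.9 FPKM in KO, and its difference of -0.23 (95% interval -0.37 to -0.10) had a limma adjusted p of 0.0550, just short of the threshold. It passed with a filter of 2 FPKM (adjusted p 0.0494), with library weights (0.0364), and without female WT replicate 3 (0.0474), male WT replicate 3 (0.0275) or male KO replicate 5 (0.0458). Sst (0.13, adjusted p 0.129) and Npy (0.17, adjusted p 0.157) did not pass, and Vip, Cck, Calb2 and Reln lay between 0.03 and 0.05.

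**Figure D3:**
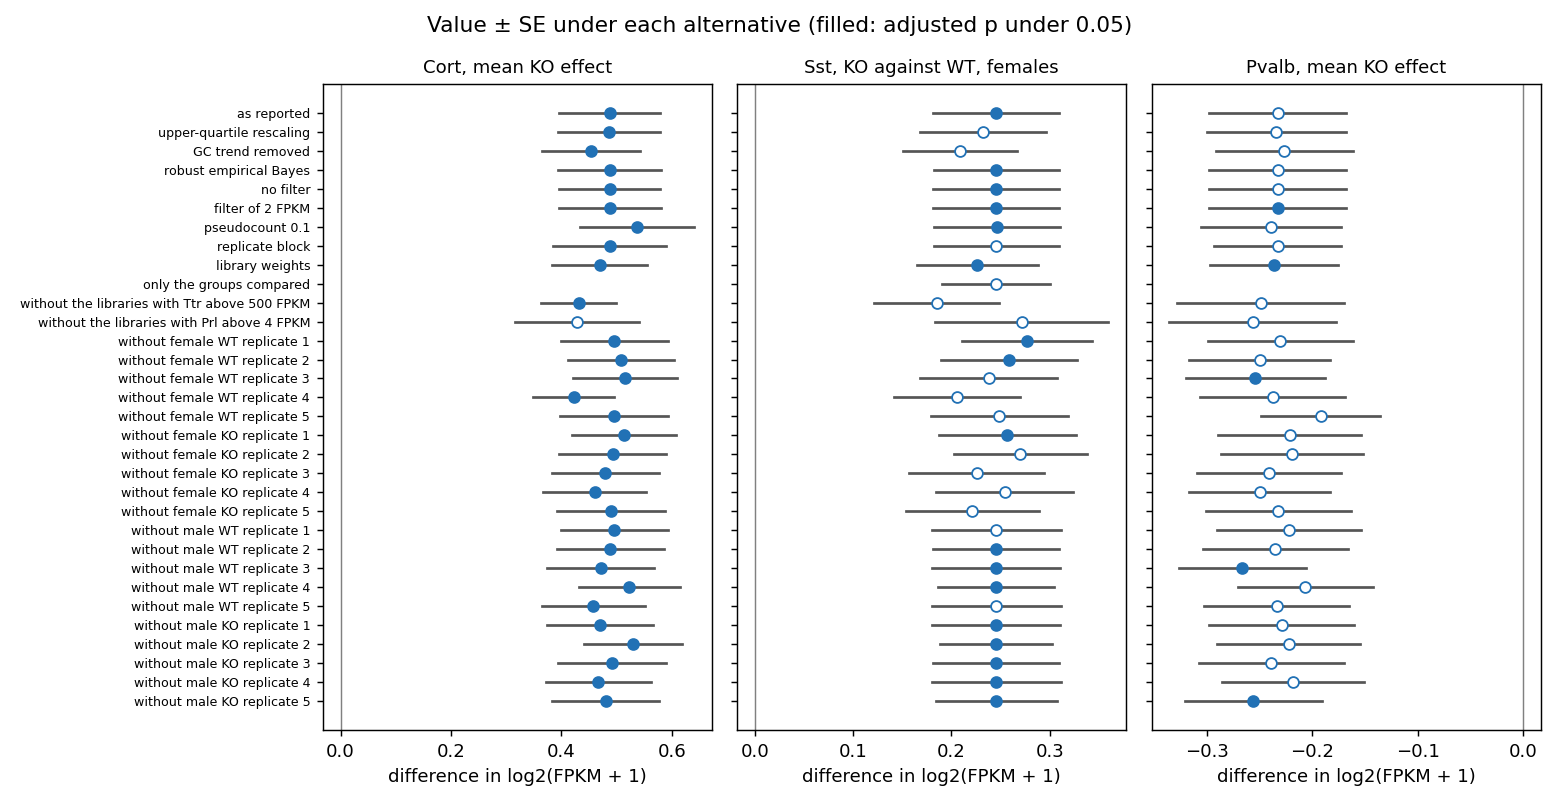
Difference ± SE in log2(FPKM + 1) for Cort and Pvalb averaged over both sexes and for Sst in females, as reported and under each alternative; filled points have an adjusted p under 0.05. Cort is filled in every setting but the one without the Prl-rich libraries, while Sst and Pvalb lie near the threshold and change sides.

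Whether the KO effect differed between the sexes was tested as an interaction, and no member passed, against 0.0455% of tested genes. At an unadjusted p under 0.05 in limma there were 4 members, where 10% of tested genes reached it. For these 4 the effect in males minus that in females was -0.23 for Sst (adjusted p 0.412), -0.25 for Vip (0.370), -0.24 for Cck (0.433) and 0.22 for Reln (0.376). For Cort it was -0.16 with a 95% interval from -0.54 to 0.23, and for Pvalb -0.09 with an interval from -0.36 to 0.19. The rise of Sst in females is thus not shown to differ from the value in males.

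Between the sexes, no member passed in WT mice, against 0.129% of tested genes, and at an unadjusted p under 0.05 in limma there was 1 member against 10.3% of tested genes, Vip (0.16, adjusted p 0.388). In KO mice Sst and Cck were lower in males than in females, 2 of 8 members against 5.38% of tested genes past the threshold and 3.13% past it and lower. This comparison shares the female KO libraries with the one in females.

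Sst was at 273 ± 24.0 FPKM in male KO and 318 ± 18.8 FPKM in female KO libraries (SD, n = 5), a difference of -0.22 (95% interval -0.36 to -0.09, limma adjusted p 0.0464). Cck was at 95.8, 104, 120.1, 113 and 126 FPKM in male KO libraries 1 to 5 and at 126, 134, 133, 142 and 122 FPKM in female KO libraries. The highest male KO library lay within the female range and the other 4 lay below it. The difference was -0.24 (95% interval -0.38 to -0.10, limma adjusted p 0.0452).

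Both calls were lost with upper-quartile scaling (adjusted p 0.0559 for Sst and 0.0516 for Cck), after removal of the GC trend (-0.17 and -0.15, adjusted p 0.160 and 0.183), with only the KO groups in the fit, and without the Ttr-rich or the Prl-rich libraries, where Cck was at -0.16 (adjusted p 0.451) without the latter. Of the 20 fits without 1 library, Sst passed in 7 and Cck in 8, with differences of -0.26 to -0.18 and -0.28 to -0.18. Sst was lost without female WT replicates 2, 3 and 5, any of the 5 female KO libraries, male WT replicates 1 and 5, and male KO replicates 1, 2 and 4. Cck was lost without female WT replicates 1, 3 and 5, female KO replicates 2 to 5, male WT replicates 1 and 5, and male KO replicates 1, 2 and 4.

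Values of other tissues and of GC content differed between female KO and female WT libraries and are set beside the calls in females. Past the threshold in females were 3.32% of all tested genes. The 8 choroid plexus markers summed to 43.4 to 1531 FPKM in female KO and 12.6 to 914 FPKM in female WT libraries, and all 7 tested markers lay above 0 in the comparison without passing it. The 3 pituitary markers in the files summed to 0.508 to 129 FPKM in female KO and 0.128 to 4.52 FPKM in female WT libraries. The 9 dentate granule cell markers summed to 76.9 to 101 FPKM in female KO and 99.8 to 117 FPKM in female WT libraries. All 9 had differences below 0, and Tdo2 and Trpc6 fell. The 7 oligodendrocyte markers summed to 489.98 to 607 FPKM in female KO and 455 to 765 FPKM in female WT libraries. All 7 had differences below 0, and Opalin fell by 0.47 (limma adjusted p 0.0186). Drd1 of the striatal list fell by 0.32 (adjusted p 0.0232) and Prkcd of the thalamic list by 0.46 (adjusted p 0.0424), with calls in 23 of 30 and 14 of 31 alternative fits. In males all 7 oligodendrocyte markers also lay below 0, with a median of -0.15 in each sex. All 7 choroid plexus markers lay above 0 in males too, with a median of 0.12 against 0.67 in females. The granule cell median was -0.04 in males, with 7 of 9 below 0, and -0.27 in females. The 2 tested pituitary markers lay below 0 in males and above 0 in females. None of these markers passed in males. The GC slope was 0.0648 to 0.0818 log2 units per 10 points of GC in female KO libraries and -0.0281 to 0.0327 in female WT libraries. Sst, Cort and Cck have GC contents of 56.0%, 58.5% and 58.5%, above the median of 50.8% of tested genes. Of the other members, Npy (53.7%) and Calb2 (52.1%) were also above that median. Reln (50.2%), Pvalb (49.6%) and Vip (40.4%) were below it, and Vip was higher in female KO by 0.17 without passing. The part of these tissues in the calls was not tested beyond the fits without the libraries named above.

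Cort was also set against Sst, whose receptors its peptide shares, as a ratio of FPKM within each library. This ratio was chosen after its values were seen. Cort was 2.88 ± 0.509% of Sst in female WT and 3.72 ± 0.470% in female KO, and in males 2.72 ± 0.325% in WT against 3.70 ± 0.441% in KO (SD, n = 5). In males the ranges did not overlap, with 2.25 to 3.003% in WT and 3.27 to 4.26% in KO, while in females they did.

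The log2 ratio was higher in KO by 0.38 in females (exact permutation test, two-sided, p = 0.0238) and by 0.44 in males (exact p = 0.00794, the smallest that 252 splits of 5 against 5 can give). In females the difference was 0.32 without female KO replicate 4 (exact p = 0.0556), 0.22 without the Ttr-rich libraries (exact p = 0.114) and 0.23 without the Prl-rich libraries (exact p = 0.333). In males it was 0.49 without the Ttr-rich library (exact p = 0.00794). The plot of Cort against Sst shows both genes in every library.

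**Figure D4:**
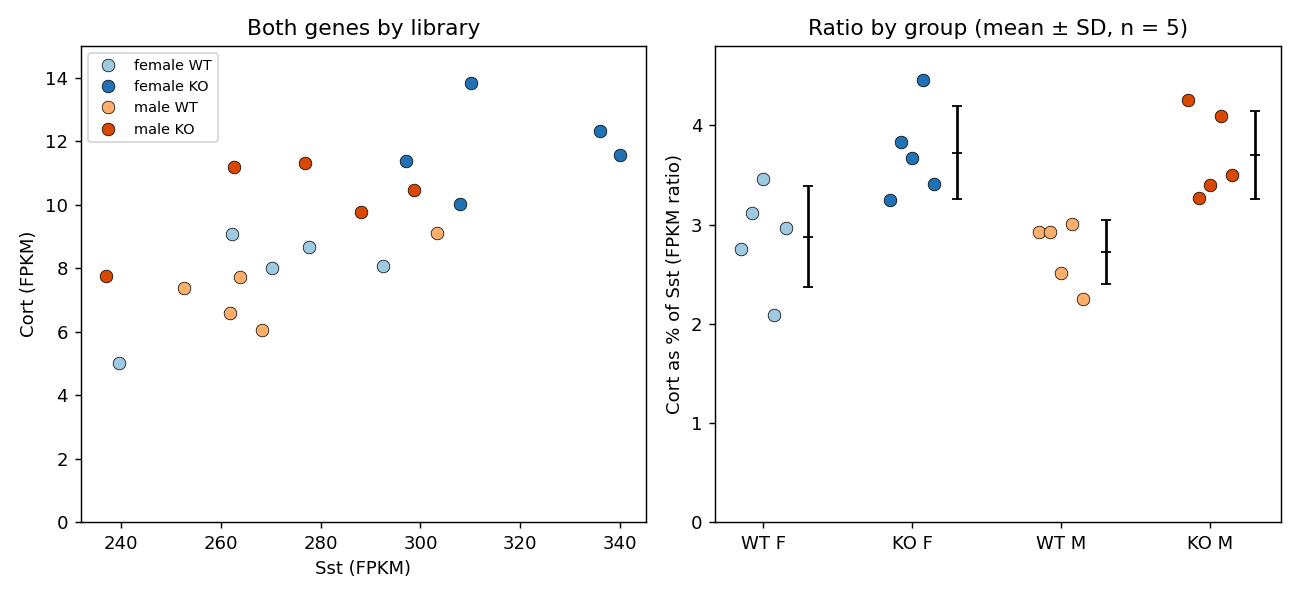
Left, Cort against Sst in FPKM for each of the 20 libraries. Right, Cort as a percentage of Sst by library (points) with the mean ± SD of 5; male KO libraries lie above all male WT libraries.

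How the 8 genes varied together was measured over the 20 libraries after removal of each group's mean, in 28 pairs. No pair passed by Pearson's r after Benjamini-Hochberg adjustment over the 28. The closest was Cort with Npy, 2 peptides, with r = 0.64 (permutation p = 0.00474, adjusted p 0.132) and Spearman's rho = 0.75 (permutation p = 0.00033, adjusted p 0.00924). It was 0.65 without the 2 libraries farthest from the median and 0.67 without the Ttr-rich libraries.

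Sst and Cck had r = 0.60 (permutation p = 0.0150, adjusted p 0.132) and rho = 0.63 (permutation p = 0.0102, adjusted p 0.143), and r = 0.48 without the 2 farthest libraries. Sst and Cort had r = 0.60 (permutation p = 0.0144, adjusted p 0.132) and rho = 0.47 (permutation p = 0.0512, adjusted p 0.205). That relation rests on male WT replicate 4 and male KO replicate 2, without which r was 0.36. Cort and Reln, at r = 0.57, were at 0.19 without the 2 farthest libraries.

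Only genes with a plain symbol and a mean of at least 1 FPKM were compared with the members. Symbols beginning with Rp, Rik symbols and numbered Gm symbols were left out. Of the rest, the genes whose levels tracked each member most closely over the 20 group-centred libraries are given as a description. They were Tecr (r = 0.82) and Cdk5 (0.82) for Sst, Syngr1 (0.82) and Zfp219 (0.75) for Cort, Grcc10 (0.79) and Phpt1 (0.78) for Npy, and Fam207a (0.80) and Syt11 (0.75) for Vip. For Cck they were Acot7 (0.91) and Cst3 (0.88), for Pvalb Stmn2 (0.84) and Slc35f5 (0.81), for Calb2 Cpne2 (0.81) and Adcyap1 (0.80), and for Reln Hk1 (0.83) and Kcng1 (0.81). All points come from the same 20 libraries, which differ in tissue content, and these r values were the highest among the genes compared.

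The receptors through which these peptides and reelin act were taken as a list of 16 genes, of which 13 were tested. In females none rose and 2 fell, where 3.32% of all tested genes passed in either direction, with a list median of 0.00 against 0.01 over all tested genes. Npy1r, the Y1 receptor of Npy, fell by 0.22 on the log2 scale (limma adjusted p 0.0347), from 10.3 ± 0.749 to 8.64 ± 0.805 FPKM (SD, n = 5). Vldlr, a reelin receptor, fell by 0.18 (adjusted p 0.0438), from 10.98 ± 0.602 to 9.59 ± 0.576 FPKM. Both also fell in the mean of both sexes, by 0.14 (adjusted p 0.0499) and 0.14 (adjusted p 0.0282), where 3.22% of tested genes passed, and no receptor passed in males. Between KO males and KO females Npy1r was the 1 receptor of 13 that passed, beside 5.38% of all tested genes. It was higher in males by 0.20 (adjusted p 0.0457), a call that held in 13 of 31 alternative fits.

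These receptor calls were near the threshold. In females Npy1r passed in 21 of 31 alternative fits and Vldlr in 12 of 31, with differences of -0.28 to -0.18 and -0.21 to -0.15. Both were lost after removal of the GC trend, with only the female groups in the fit and without the Prl-rich libraries, and Vldlr also without the Ttr-rich libraries, with adjusted p values up to 0.144 for Npy1r and 0.254 for Vldlr. Npy1r was also lost without female WT replicates 1, 2 or 3 or female KO replicates 2, 3 or 5. Vldlr was also lost without any female WT library but replicate 2, any female KO library but replicate 4, male WT replicates 1, 2 or 5 or male KO replicates 1, 2 or 3. In the mean of both sexes Npy1r passed in 8 of 30 alternative fits and Vldlr in 22 of 30. Both were lost without the Prl-rich libraries, and Vldlr also without female WT replicate 4, female KO replicates 2 or 3, male WT replicate 3 or male KO replicates 3 or 5.

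The somatostatin receptors Sstr1 to Sstr4, which also bind cortistatin, did not pass. In females their differences were 0.27 for Sstr1 (limma adjusted p 0.285), 0.13 for Sstr2 (0.485), -0.03 for Sstr3 (0.895) and 0.30 for Sstr4 (0.220).

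Genes of GABA synthesis and vesicle loading were read from a further list. Gad1 and Gad2, the enzymes that make GABA, and Slc32a1, which loads it into vesicles, differed by 0.02, 0.03 and 0.10 in the mean of both sexes (limma adjusted p 0.780, 0.586 and 0.206), and none of the 3 passed.

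None of the 15 tested interneuron transcription factors of 17 listed passed in a KO comparison, and their median was 0.07 in females and 0.02 in the mean of both sexes. Lhx6, which specifies Sst and Pvalb cells, was at 3.24 ± 0.697 FPKM in female WT and 3.50 ± 0.971 FPKM in female KO libraries (SD, n = 5), and its mean difference over both sexes was 0.03 (limma adjusted p 0.909). Between KO males and KO females Maf (-0.19, limma adjusted p 0.0191) was lower in males and Prox1 (0.28, adjusted p 0.0442) higher. These calls held in 29 and 15 of 31 alternative fits. Prox1 is also on the list of dentate granule cell markers. Of that list's 9 genes, 8 lay above 0 in this comparison. Of these, 3 passed, Prox1 among them, beside 5.38% of all tested genes. Which cells the difference of Prox1 came from was not tested.

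Of 24 tested markers and peptides of other interneuron classes, 1 passed in the mean of both sexes, a share near the 3.22% of all tested genes, and the list median was -0.01. Penk, the enkephalin precursor, fell in the mean of both sexes by 0.31 (limma adjusted p 0.0107). In females it went from 14.1 ± 1.61 FPKM in WT to 11.6 ± 1.32 FPKM in KO, and in males from 15.6 ± 1.76 to 11.9 ± 1.11 FPKM (SD, n = 5). Its call held in 29 of 30 alternative fits, the exception being the fit without the Prl-rich libraries (adjusted p 0.107). Penk is also made by granule cells and other neurons.

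Of 13 genes that process peptides or build dense-core granules, Chgb, which encodes the granule protein chromogranin B, was the 1 that passed in the KO comparisons, beside 3.32% of all tested genes in females and 3.22% in the mean of both sexes, and 10 of the 13 lay below 0 in females with a median of -0.05. It fell in females by 0.17 (limma adjusted p 0.0349), from 256 ± 13.8 to 227 ± 11.4 FPKM (SD, n = 5), and in the mean of both sexes by 0.15 (adjusted p 0.0131). In females the call was lost with only the female groups in the fit, without the Ttr-rich or the Prl-rich libraries, and without any 1 of female WT replicates 2, 4 and 5 and female KO replicates 2, 3 and 4. The convertases Pcsk1 and Pcsk2, which cut peptide precursors, did not pass (limma adjusted p 0.532 and 0.149 in the mean of both sexes). The call of Chgb averaged over both sexes held in 28 of 30 alternative fits and was lost without the Ttr-rich and without the Prl-rich libraries. Between KO males and KO females 3 of the 13 passed, beside 5.38% of all tested genes. Pam, which amidates peptides (0.18, limma adjusted p 0.0304), and Scg3, a granule protein (0.15, adjusted p 0.0153), were higher in males, and Pcsk1n, which encodes the convertase inhibitor proSAAS (-0.50, adjusted p 0.0191), was lower. They passed in 24, 28 and 28 of 31 alternative fits.

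Cells other than interneurons that make these genes were checked through their own markers. Of 8 Cajal-Retzius markers 3 were tested and none passed (the smallest p values were those of Trp73, at -0.08, limma adjusted p 0.313, and Cdkl1, at -0.07, adjusted p 0.438). They had summed levels of 5.69 to 6.15 FPKM in female WT and 5.20 to 5.86 FPKM in female KO libraries, and 4.99 to 6.47 FPKM in male WT and 4.91 to 5.64 FPKM in male KO libraries. Of 7 mossy cell markers 6 were tested and none passed (Sema5a was at -0.20, limma adjusted p 0.259, and Cda at 0.15, adjusted p 0.462), with sums of 29.6 to 33.7 FPKM in female WT and 30.3 to 34.8 FPKM in female KO libraries. Of 10 pyramidal cell markers, Fibcd1 rose and Neurod6 fell in females, beside 3.32% of all tested genes. Sums in females were 659 to 708 FPKM in WT and 649.7 to 716 FPKM in KO. Both genes also passed in the mean of both sexes, beside 3.22% of all tested genes. Fibcd1 was at 0.17 there (limma adjusted p 0.0310) and Neurod6 at -0.19 (adjusted p 0.000191). Between KO males and KO females Fibcd1 was lower in males and Neurod6 higher, beside 5.38% of all tested genes. The share of Reln, Calb2 and Cck made outside interneurons was not tested.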

How the data were processed

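Hippocampal RNA of 20 mouse samples was sequenced. TRIzol-extracted RNA, 1.3 µg a sample, went into a SMARTER kit, per the labels' protocols. The authors deposited FPKM per gene, per the file headers. HISAT2, StringTie, FastQC and the build mm10 are named, without versions, in the submitters' processing notes. Annotation release, read trimming and strand setting: not given in the sources used here.

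Values were set to log2(FPKM + 1). Genes with at least 0.5 FPKM in at least 5 libraries were fitted with limma 3.58.1 (trend) in R 4.3.3, which estimated 4 group means for 6 comparisons, and p-values were adjusted by Benjamini-Hochberg over all 13174 tested genes. Pairs of members were compared after removal of group means, with 100000 permutations within groups. GC content came from GENCODE M21 and start-site windows from RefSeq. The fit was tested on simulated data. Alternatives changed scaling, filter, pseudocount, fit and libraries.

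The members, the 18 other gene lists and the tests were chosen with earlier results of these data known. The text names all members, the listed genes past the threshold in the lists it describes, for lists with none the 2 with the smallest p, and the 2 genes most like each member; some listed genes are not reported here. Sstr1 to Sstr4, Gad1, Gad2, Slc32a1, Lhx6, Pcsk1, Pcsk2 and the neighbours of Cort were named for their roles or positions, after their values were seen.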

Additional observations from a re-analysis of the deposited data

Results flagged for a closer look

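In 4 of 32 groups of 5 libraries (8 genes in 4 groups), 1 library stood far from the other 4 by Dixon's test, which chance does in about 1 group in 20. Cort was at 5.01 FPKM in female WT replicate 4, below the other female WT libraries, and this library also had Ttr above 500 FPKM. Vip was at 5.19 FPKM in male WT replicate 2 and at 5.46 FPKM in male KO replicate 5, each below the rest of its group. Reln was at 3.03 FPKM in male WT replicate 2, above the rest.

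For 2 genes the KO libraries of the sexes lay on opposite sides of their WT mean. Every female KO library was above the female WT mean of Vip and every male KO library below the male WT mean, with an effect in males minus that in females of -0.25 (limma adjusted p 0.370). For Reln the order was the other way, at 0.22 (limma adjusted p 0.376). Neither difference passed the test. In females all KO libraries lay on 1 side of the WT mean for every member but Calb2. In males they did so for Cort, Npy, Vip, Pvalb and Reln. The share of all tested genes with opposite sides in the sexes is not given here, so the pattern has no background to be read against.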

How the results depend on the processing

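Over the 48 differences of the 8 genes, 1472 alternative values were computed: 1368 kept their direction and their side of the threshold, 60 lost a call, 5 gained one and 39, in 14 of the differences, changed sign. The number of members past the threshold in females, 2, was 1 with upper-quartile scaling and 1 after removal of the GC trend. It was 0 with the female groups alone, 0 without the Ttr-rich and 0 without the Prl-rich libraries, and 0 to 2 without single libraries. The count for males against females in KO, also 2, was 0 in these 5 settings and 0 to 2 without single libraries. The mean effect, with 1, gave 2 with the filter of 2 FPKM, 2 with library weights, 0 without the Prl-rich libraries, and 1 to 2 without single libraries. In males, between the sexes in WT and in the interaction the count was 0 in every setting run. The pairs, 0, were 1 after removal of the GC trend, 1 without the Ttr-rich libraries, and 0 to 1 without single libraries. The fit to the compared groups alone is the same fit for the mean effect and the interaction, and has no value of its own there.

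Same-numbered libraries of 2 compared groups had deviations that correlated at -0.105 to 0.0651 over all tested genes. Such a correlation cannot show whether same-numbered libraries share something that moved only some genes, so a pairing by number was not settled. With the replicate block the members past the threshold were 0 in females, 0 for males against females in KO and 1 in the mean effect. In that fit Sst in females had a limma adjusted p of 0.0562 and Cort 0.0538, while Cort in the mean effect was at 0.49 (adjusted p 0.0260). Npy1r and Vldlr, in females and in the mean effect, did not pass with the block.

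Differences that changed sign were small as reported, and none had passed. Without the Prl-rich libraries these were Calb2 in females (0.23) and in the interaction (-0.15), Vip (-0.00513) and Cck (-0.00932) in the mean effect and Vip between KO sexes (0.0137). Without the Ttr-rich libraries they were Calb2 in the mean effect (-0.0532), Cort in the interaction (0.12) and Sst (-0.0314) and Cck (-0.0171) between WT sexes. With the GC trend removed it was Cck in the mean effect (-0.00166). Between WT sexes, upper-quartile scaling gave -0.00380 for Sst and -0.0117 for Cck, and library weights gave -0.0133 for Sst, -0.00985 for Cck and 0.0180 for Pvalb. Without single libraries the ranges were -0.12 to 0.14 for Calb2 in females, -0.0213 to 0.0617 for Sst in males, -0.0221 to 0.11 for Calb2 in the mean effect, -0.0108 to 0.14 for Npy and -0.0636 to 0.19 for Calb2 in the interaction. Between WT sexes they were -0.0341 to 0.0401 for Sst, -0.19 to 0.00466 for Cort, -0.0351 to 0.0371 for Cck and -0.0688 to 0.0654 for Pvalb, and between KO sexes -0.16 to 0.00742 for Calb2.

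The fits for the listed genes and the ratio of Cort to Sst were added after seeing the data. No listed gene past the threshold changed sign in them. Depth is unknown, so the precision of low values such as those of Reln and Vip rests on the spread of 5 libraries alone. The fits without the Prl-rich libraries leave 2 female KO libraries. The cause of each change was not tested.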
